A study of Mus musculus with 6 samples.

Results

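The expression of 49 genes of macrophages and other leukocytes was followed in islet cells of newborn mice, among 45616 genes and transcripts on the arrays. The genes were taken from a written list of 12 classes that runs from pan-leukocyte genes to lymphocyte genes, and all 49 were found through the RefSeq accessions of 68 probes. The islets came from P1 pups of the genotype *Wnt4eGFPCre; mTmG*, from mice crossed to C57BL/6J. *Wnt4eGFPCre* is a knock-in allele through which cells that transcribe *Wnt4* make eGFP and Cre, and *mTmG* is a reporter at *Rosa26* in which Cre replaces membrane RFP by membrane GFP. The methods name both alleles for the sorted islets, while the genotype label reads Wnt4pos or Wnt4neg and a legend of the study writes the *Wnt4*low population as lacking *Wnt4eGFPCre*, so whether every pup carried both alleles is not settled here. Cells were sorted into mGFP+ cells, here *Wnt4*hi and labelled GFPpositive, and mGFP− cells, here *Wnt4*low and labelled GFPnegative. The reporter marks any cell with a history of *Wnt4* transcription, whatever its type, and the sources used here name no gate on CD45 or on another leukocyte surface marker for these samples. Both populations can therefore hold leukocytes and other cells of the islet beside endocrine cells. There were 3 one-color arrays per population, each of 1 pool of islets from 3 or 4 pups. Array values are given throughout in the order replicates 2, 3 and 4 for *Wnt4*hi and replicates 1, 3 and 4 for *Wnt4*low samples.

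Macrophages enter the pancreas before birth and are the most common leukocyte of the islet. They depend on the CSF1 receptor, which binds the cytokines CSF1 and IL34, and on the transcription factor PU.1, the product of *Spi1*, and they take up dying cells, present antigen and secrete lysozyme, cathepsins and the C1q chains of complement. Neutrophils are known by S100A8 and S100A9, and lymphocytes by chains of the T cell receptor complex, the B cell receptor complex and cytotoxic granule proteins.

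Of 59305 spots that are not controls, 70.5% to 79.5% were well above background by the scanner software, and 0 were saturated. Differences and fold changes are on the log2 scale of normalized intensity, from *Wnt4*low to *Wnt4*hi cells, with their standard error (SE) or 95% interval from limma, which was fitted over all 45616 features. For each gene the probe with the highest mean was used. A gene counts as lower or higher where the unadjusted p was below 0.05, the threshold of the study's methods, and adjusted p values are those of Benjamini-Hochberg over all features. With 3 arrays against 3, an exact permutation test cannot give a two-sided p below 0.1. Levels of different genes are not compared, because each is read by its own probe.

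Most leukocyte genes had a lower mean on the *Wnt4*hi arrays. Of the 49 genes, 19 (38.8%) were lower in *Wnt4*hi cells and 0 were higher, where 5.53% of all features were lower and 5.02% were higher. The median log2 fold change over the 49 was −0.57, against 0.07 over all features tested. A fold change below 0 was found for 41 of the 49 (83.7%), against 36.5% of all features. For 18 genes (36.7%) every *Wnt4*hi array lay below every *Wnt4*low array, against 6.44% of all features, and for *Lst1* and *Cd163* (4.08%) every *Wnt4*hi array lay above, against 9.56%. After adjustment 1 gene, *S100a8*, was lower and 0 were higher, where 0.403% of all features were lower and 0.0351% were higher. The classes differed in how many of their genes were lower: all 6 pan-leukocyte genes and all 3 lysozyme and cathepsin genes, 2 of 3 genes of the CSF1 receptor and its ligands, 2 of 4 granulocyte genes, 2 of 8 core macrophage genes, 1 of 4 genes of Fc receptors and adaptors, 1 of 3 C1q chains, 1 of 3 oxidase subunits, 1 of 6 scavenger and resident macrophage genes, and 0 of the 4 integrins, 2 transcription factors and 3 lymphocyte genes. In RNA of sorted cells, fewer leukocytes and less RNA of a gene per leukocyte cannot be told apart.

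**Figure D1:**
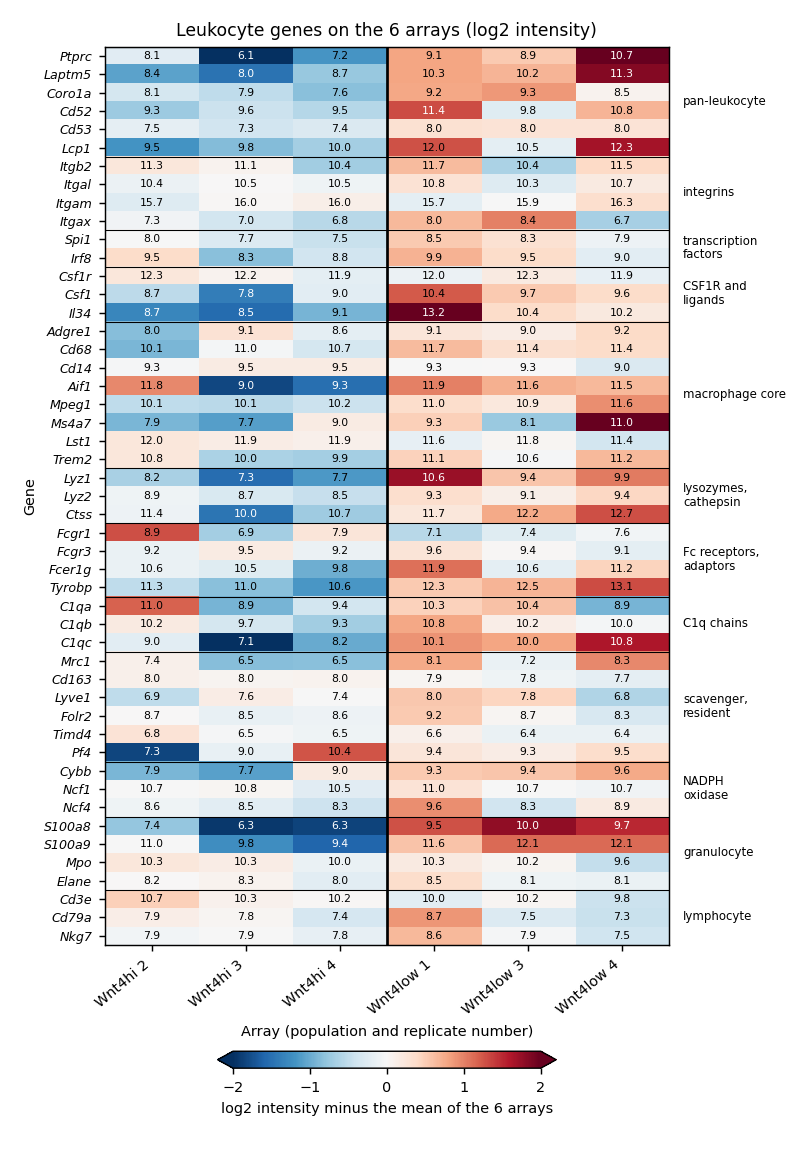
Log2 intensity of each of the 49 leukocyte genes (rows, by class) on the 6 arrays (columns), printed in each cell, with color for the difference from the gene's mean over the 6 arrays. The pan-leukocyte rows, the lysozymes and *Ctss*, *Tyrobp*, *C1qc*, *S100a8* and *S100a9* lie below their mean on all 3 *Wnt4*hi arrays and above it on most *Wnt4*low arrays, while *Itgam*, *Csf1r*, *Cd14* and the lymphocyte rows show no such step.

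The sequence just before the transcription start is shown for 4 of the genes with the lowest fold changes that a table of RefSeq promoters (GRCm38.p6) holds, namely *S100a8*, *S100a9*, *C1qc* and *Laptm5*, since they stand for 3 different classes and were lower together. *Ptprc* (−2.43) and *Lyz1* (−2.21), which it also holds, had lower fold changes than *Laptm5*, *C1qc* and *S100a9* and are not printed. Each is the 250 bases before the annotated start, 5′ to 3′ on the strand of the gene. *S100a8* and *S100a9* lie near each other on chromosome 3, at chr3:90668821-90669070 on the + strand and chr3:90695722-90695971 on the − strand. *C1qc* is at chr4:136892915-136893164 on the − strand and *Laptm5* at chr4:130913066-130913315 on the + strand. Capitals mark matches on either strand to GAGGAA, a core of sites of PU.1 (TTCCTC on the other strand), and to TTGCNNAA, a pattern of C/EBP sites.
S100a8: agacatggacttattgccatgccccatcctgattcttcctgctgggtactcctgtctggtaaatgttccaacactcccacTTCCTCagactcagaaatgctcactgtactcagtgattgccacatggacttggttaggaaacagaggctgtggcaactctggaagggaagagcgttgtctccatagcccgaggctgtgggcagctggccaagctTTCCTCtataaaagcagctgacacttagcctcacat
S100a9: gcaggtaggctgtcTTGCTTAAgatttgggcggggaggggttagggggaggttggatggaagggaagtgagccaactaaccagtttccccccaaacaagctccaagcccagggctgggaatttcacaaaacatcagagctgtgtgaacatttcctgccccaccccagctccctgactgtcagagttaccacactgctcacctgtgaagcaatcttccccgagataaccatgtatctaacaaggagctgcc
C1qc: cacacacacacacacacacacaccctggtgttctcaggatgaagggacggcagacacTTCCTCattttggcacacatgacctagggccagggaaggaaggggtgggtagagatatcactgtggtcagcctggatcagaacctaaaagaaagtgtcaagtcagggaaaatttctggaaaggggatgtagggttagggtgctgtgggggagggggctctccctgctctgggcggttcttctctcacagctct
Laptm5: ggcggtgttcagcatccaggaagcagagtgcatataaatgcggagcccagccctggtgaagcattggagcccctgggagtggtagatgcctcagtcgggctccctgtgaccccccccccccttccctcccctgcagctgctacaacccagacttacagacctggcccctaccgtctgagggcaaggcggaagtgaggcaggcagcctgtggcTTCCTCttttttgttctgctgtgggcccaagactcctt
The core GAGGAA stands 2 times in the window of *S100a8*, 1 time each in those of *C1qc* and *Laptm5* and 0 times in that of *S100a9*, which holds TTGCNNAA 1 time. Of the genes not printed, *Lyz1* holds TTGCNNAA 1 time, and *Ptprc* has a window with GAGGAA and a window with neither pattern. The promoter table held 36 of the 49 genes. GAGGAA was found for 19 of them (52.8%), or in 20 of their 43 windows (46.5%) where a gene has more than 1 start, and 23.3% of all 32851 windows of this length hold it. By outcome, 8 of 16 genes that were lower and 11 of 20 others had it. TTGCNNAA was found for 5 of the 36 genes, in 6 of their 43 windows (14.0%), and in 9.56% of all windows. By outcome these were 3 of 16 genes that were lower (*S100a9*, *Lyz1* and *Cd68*) and 2 of 20 others (*Fcgr3* and *Pf4*). These letters do not overlap one another in the windows shown, and a match in a window is not a measured binding site.

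Pan-leukocyte genes are shared by most white blood cells. All 6 were lower in *Wnt4*hi cells with no overlap between the arrays, and the median log2 fold change was −1.50. *Ptprc* encodes CD45, the surface phosphatase that defines leukocytes. Its log2 intensity was 8.12, 6.12 and 7.17 in *Wnt4*hi against 9.14, 8.86 and 10.68 in *Wnt4*low samples, a difference of −2.43 (SE 0.66, adjusted p 0.248 by limma). *Ptprc* was well above background on 1 of 3 *Wnt4*hi arrays and on each *Wnt4*low array, and on 0 of 6 arrays by its other probe, so that the size of its difference rests in part on values near background. *Laptm5*, a lysosomal membrane protein of haematopoietic cells, was at 8.41, 8.01 and 8.72 in *Wnt4*hi against 10.28, 10.16 and 11.32 in *Wnt4*low samples. This gave −2.20 (SE 0.36, adjusted p 0.0809 by limma), with a gap of more than 1 between the highest *Wnt4*hi and the lowest *Wnt4*low array. In the log2 values that the authors normalized, *Laptm5* differed by −1.13 and passed.
*Lcp1*, the actin bundler L-plastin, was at 9.47, 9.81 and 10.00 in *Wnt4*hi against 11.95, 10.48 and 12.34 in *Wnt4*low samples. Its 3 probes gave −1.83, −2.15 and −1.65, each lower in *Wnt4*hi cells. *Coro1a*, an actin regulator of leukocytes, was at 8.06, 7.90 and 7.57 in *Wnt4*hi against 9.19, 9.27 and 8.47 in *Wnt4*low samples, with a fold change of −1.14 (SE 0.26). *Cd52*, a small surface glycoprotein of lymphocytes and myeloid cells, was at 9.35, 9.64 and 9.50 in *Wnt4*hi against 11.39, 9.84 and 10.75 in *Wnt4*low samples. The lowest *Wnt4*low array, replicate 3, exceeded the highest *Wnt4*hi array of *Cd52* by little, and the fold change of −1.16 (adjusted p 0.348 by limma) lost the threshold without *Wnt4*hi replicate 2 (−1.09), without *Wnt4*hi replicate 4 (−1.16) or without *Wnt4*low replicate 4 (−1.12). *Cd53*, a tetraspanin of leukocytes, was at 7.54, 7.33 and 7.42 in *Wnt4*hi against 8.02, 7.99 and 7.99 in *Wnt4*low samples. *Cd53* had the smallest difference of the class (−0.57, standard error 0.12), and its *Wnt4*low arrays lay close together. In the authors' normalized values *Cd53* differed by −0.33 and did not pass, with *Wnt4*hi replicate 2 the highest of all arrays, and without that replicate it passed at −0.65.

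Integrins of leukocytes passed the threshold in 0 of 4, and their arrays overlapped. *Itgb2*, the shared β2 chain, was at 11.28, 11.13 and 10.36 in *Wnt4*hi against 11.69, 10.43 and 11.46 in *Wnt4*low samples, and *Itgal*, the α chain of LFA-1, was at 10.42, 10.55 and 10.46 in *Wnt4*hi against 10.84, 10.28 and 10.73 in *Wnt4*low samples. Both overlapped between the populations, with fold changes of −0.27 (95% interval −1.26 to 0.71) and −0.14 (95% interval −0.58 to 0.30). *Itgam*, the α chain known as CD11b, was at 15.67, 15.95 and 16.04 in *Wnt4*hi against 15.74, 15.92 and 16.27 in *Wnt4*low samples. The bright signal of *Itgam* overlapped between the populations (−0.09, 95% interval −0.55 to 0.38), and its other probe, of another transcript accession, differed by −0.13. *Itgax*, the CD11c chain of dendritic cells and some macrophages, was well above background on 0 of 3 *Wnt4*hi and 2 of 3 *Wnt4*low arrays. It ranged from 6.69 to 8.36 over the 6 arrays and did not pass the threshold (−0.66), and without *Wnt4*low replicate 4 it was −1.17 and passed, while without *Wnt4*low replicate 3 it was −0.32. The sizes of these differences rest in part on values near background.

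Both transcription factors overlapped between the populations. *Spi1*, which encodes PU.1, was at 7.96, 7.71 and 7.53 in *Wnt4*hi against 8.51, 8.28 and 7.88 in *Wnt4*low samples, a difference of −0.49 (95% interval −1.01 to 0.03). Only *Wnt4*hi replicate 2 lay above a *Wnt4*low array, replicate 4, and *Spi1* passed the threshold without either of these (−0.60 and −0.67), while without *Wnt4*low replicate 1 it was −0.34. *Irf8*, a factor of monocytes, macrophages and dendritic cells, was at 9.54, 8.34 and 8.79 in *Wnt4*hi against 9.88, 9.54 and 8.97 in *Wnt4*low samples, with a fold change of −0.57 (95% interval −1.48 to 0.33). It passed without *Wnt4*hi replicate 2 (−0.89) and in the authors' normalized values (−1.09), and was −0.30 without *Wnt4*hi replicate 3.

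Both ligands of the CSF1 receptor were lower in *Wnt4*hi cells. Such ligands are made mostly by cells other than macrophages, among them endothelial and stromal cells for CSF1. *Csf1* was at 8.67, 7.81 and 8.97 in *Wnt4*hi against 10.42, 9.72 and 9.55 in *Wnt4*low samples, a difference of −1.41 (SE 0.37, adjusted p 0.228 by limma). The arrays of *Csf1* did not overlap, and its other 2 probes, of another transcript accession, were not well above background on any array. *Il34* was at 8.71, 8.48 and 9.09 in *Wnt4*hi against 13.22, 10.39 and 10.21 in *Wnt4*low samples, a difference of −2.51 (SE 0.81, adjusted p 0.335 by limma). *Wnt4*low replicate 1 was far above the other arrays of *Il34*, and the other probe of the gene overlapped between the populations with −0.40. Without *Wnt4*low replicate 1 that other probe had the higher mean, and *Il34* differed by −0.47 and did not pass. It also did not pass without *Wnt4*hi replicate 3 (−2.38), and in the authors' normalized values it passed at −1.64.
*Csf1r*, the receptor that marks macrophages and their precursors, was at 12.31, 12.16 and 11.90 in *Wnt4*hi against 11.96, 12.26 and 11.92 in *Wnt4*low samples on its brighter probe, with a fold change of 0.07 (95% interval −0.35 to 0.49). Its other probe, of the same accession, was at 11.12, 9.93 and 9.94 in *Wnt4*hi against 11.79, 11.06 and 10.96 in *Wnt4*low samples. That probe differed by −0.94 (adjusted p 0.474 by limma over all probes), with only *Wnt4*hi replicate 2 above a *Wnt4*low array, so the probes of *Csf1r* disagree.

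Core macrophage genes were lower for 2 of 8 and had a median of −0.79. *Cd68*, a lysosomal glycoprotein of macrophages, was at 10.14, 11.02 and 10.70 in *Wnt4*hi against 11.68, 11.37 and 11.42 in *Wnt4*low samples, a difference of −0.87 (SE 0.25, adjusted p 0.270 by limma). Its other probe was at 8.73, 8.41 and 8.68 in *Wnt4*hi against 9.86, 10.01 and 10.12 in *Wnt4*low samples. That probe differed by −1.39 (adjusted p 0.0376 by limma over all probes), and neither probe overlapped between the populations. *Mpeg1*, the pore-forming protein perforin-2, was at 10.13, 10.10 and 10.21 in *Wnt4*hi against 10.99, 10.85 and 11.58 in *Wnt4*low samples. It was lower by a fold change of −0.99 (SE 0.21), with *Wnt4*hi arrays close together. In the authors' normalized values they were not close, *Wnt4*hi replicate 2 being the highest of all arrays, and *Mpeg1* differed by −0.54 and did not pass, or by −1.05 and passed without that replicate. Its dimmer probe was well above background on 0 of 3 *Wnt4*hi and 2 of 3 *Wnt4*low arrays.
*Aif1*, the calcium-binding protein IBA1 used to stain macrophages, was at 11.82, 9.03 and 9.35 in *Wnt4*hi against 11.86, 11.56 and 11.50 in *Wnt4*low samples. *Wnt4*hi replicate 2 stood with the *Wnt4*low arrays, while the other *Wnt4*hi arrays were more than 2 lower. The fold change of −1.58 (95% interval −3.34 to 0.19) did not pass, and without *Wnt4*hi replicate 2 it was −2.45 and passed, while without *Wnt4*hi replicate 3 it was −1.06. *Ms4a7*, a tetraspan protein of resident macrophages, was at 7.91, 7.72 and 8.99 in *Wnt4*hi against 9.30, 8.08 and 10.96 in *Wnt4*low samples. *Wnt4*low replicate 4 was high and *Wnt4*low replicate 3 was among the *Wnt4*hi arrays, so that −1.24 (95% interval −3.08 to 0.59) did not pass, whereas −1.93 without *Wnt4*low replicate 3 did. Without *Wnt4*low replicate 4 it was −0.49.
*Adgre1*, which encodes the macrophage antigen of the adhesion GPCR family, was at 7.98, 9.13 and 8.64 in *Wnt4*hi against 9.08, 8.99 and 9.22 in *Wnt4*low samples, with a fold change of −0.51 (95% interval −1.23 to 0.21). Only *Wnt4*hi replicate 3 lay among the *Wnt4*low arrays, and without it *Adgre1* passed at −0.79. Without *Wnt4*hi replicate 2 it was −0.21 and did not pass, and in the authors' normalized values it passed at −0.60. *Trem2*, a lipid receptor of macrophages, was at 10.82, 9.97 and 9.92 in *Wnt4*hi against 11.05, 10.57 and 11.24 in *Wnt4*low samples, with a fold change of −0.71 (95% interval −1.46 to 0.03). Here *Wnt4*hi replicate 2 lay above *Wnt4*low replicate 3, and *Trem2* passed without the first (−1.01) or the second (−0.91) and was −0.55 without *Wnt4*hi replicate 4.
*Cd14*, the lipopolysaccharide co-receptor, was at 9.29, 9.48 and 9.49 in *Wnt4*hi against 9.32, 9.33 and 9.03 in *Wnt4*low samples, and *Lst1*, a leukocyte transcript of the MHC class III region, at 12.02, 11.95 and 11.90 in *Wnt4*hi against 11.64, 11.83 and 11.43 in *Wnt4*low samples. Neither passed (0.19 and 0.32), although each *Wnt4*hi array of *Lst1* lay above each *Wnt4*low array, and *Lst1* passed in the upward direction without *Wnt4*low replicate 3 (0.42). The other probe of *Cd14* differed by −0.46, opposite in sign.

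**Figure D2:**
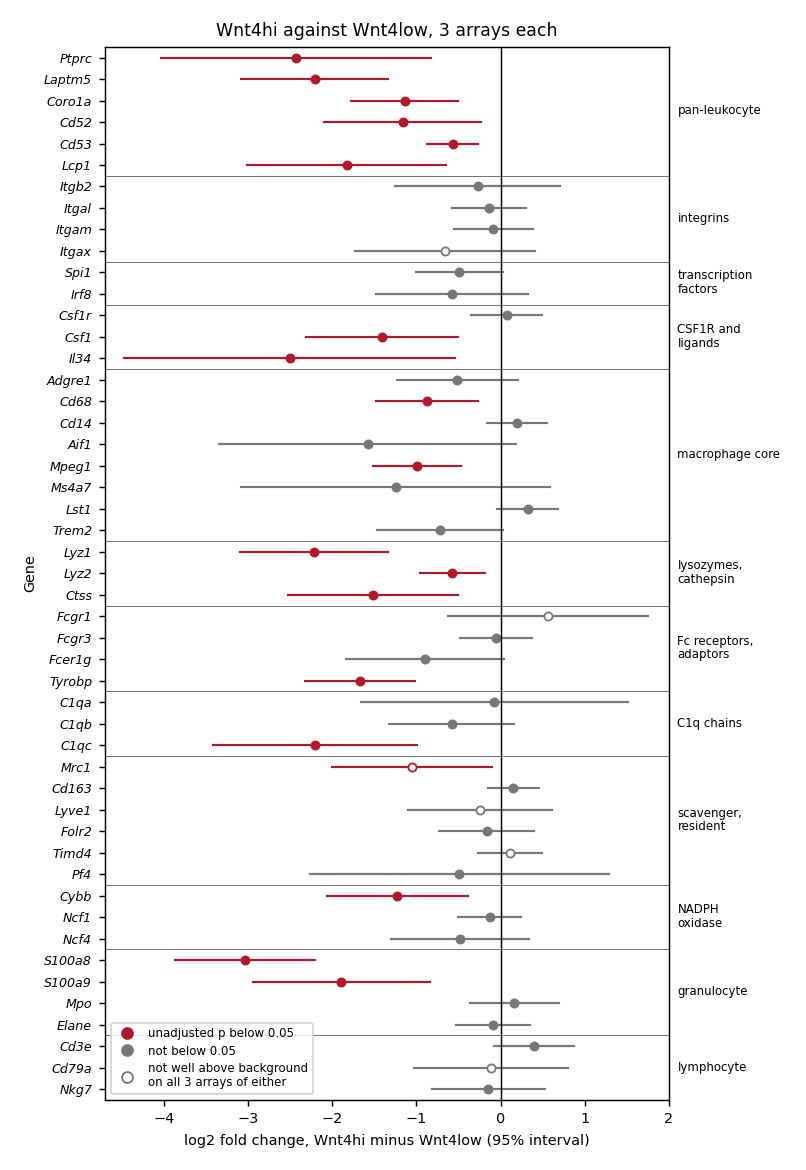
Log2 fold change (*Wnt4*hi minus *Wnt4*low) with its 95% interval for each of the 49 genes, 3 arrays per population. The 19 red points, unadjusted p below 0.05, all lie left of 0, from *S100a8* at −3.04 to *Cd53* at −0.57, and 8 genes lie right of 0 with intervals that include it.

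Lysozymes and cathepsin S, enzymes of the phagocyte lysosome and its secretions, all passed as lower in *Wnt4*hi cells (median −1.51). *Lyz1* was at 8.22, 7.34 and 7.72 in *Wnt4*hi against 10.59, 9.41 and 9.90 in *Wnt4*low samples, a difference of −2.21 (SE 0.36, adjusted p 0.0813 by limma). *Lyz2* was at 8.91, 8.70 and 8.53 in *Wnt4*hi against 9.33, 9.12 and 9.41 in *Wnt4*low samples, a difference of −0.57 (SE 0.16, adjusted p 0.260 by limma). The arrays of neither gene overlapped. In the authors' normalized values *Lyz2* differed by −1.71, so that its size depends on the processing. The 2 genes are near-identical copies, so that a probe may read both transcripts and the split between them is uncertain. *Ctss*, the cathepsin that trims the invariant chain for antigen presentation, was at 11.35, 10.00 and 10.75 in *Wnt4*hi against 11.68, 12.22 and 12.74 in *Wnt4*low samples, a difference of −1.51 (SE 0.42). Its highest *Wnt4*hi array, replicate 2, lay just below its lowest *Wnt4*low array, replicate 1.

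Among Fc receptors and their adaptors, *Tyrobp* was lower. *Tyrobp* encodes DAP12, the signalling partner of TREM2 and related receptors, and was at 11.28, 10.96 and 10.62 in *Wnt4*hi against 12.31, 12.47 and 13.09 in *Wnt4*low samples, a difference of −1.67 (SE 0.27, adjusted p 0.0807 by limma). The lowest *Wnt4*low array, replicate 1, lay about 1 above the highest *Wnt4*hi array, replicate 2. *Fcer1g*, the shared γ chain of Fc receptors, was at 10.63, 10.52 and 9.80 in *Wnt4*hi against 11.86, 10.57 and 11.22 in *Wnt4*low samples, with a fold change of −0.90 (95% interval −1.83 to 0.04). The overlap was between *Wnt4*hi replicate 2 and *Wnt4*low replicate 3, and *Fcer1g* passed without the latter (−1.22) and was −0.57 without *Wnt4*low replicate 1. *Fcgr3*, a low-affinity IgG receptor, was at 9.20, 9.51 and 9.23 in *Wnt4*hi against 9.60, 9.37 and 9.14 in *Wnt4*low samples and differed by −0.06 (95% interval −0.48 to 0.37). *Fcgr1*, the high-affinity IgG receptor, was well above background on 2 of 3 *Wnt4*hi and 1 of 3 *Wnt4*low arrays and ranged from 6.93 to 8.91. *Wnt4*hi replicate 2 was its highest array. The fold change of *Fcgr1* was 0.57 and did not pass, and it was 1.04 and passed without *Wnt4*hi replicate 3 but 0.062 without *Wnt4*hi replicate 2.

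Of the chains of C1q, the first component of the classical complement pathway and a product of resident macrophages, *C1qc* was lower and *C1qa* and *C1qb* did not pass. *C1qc* was at 8.96, 7.07 and 8.15 in *Wnt4*hi against 10.06, 9.95 and 10.77 in *Wnt4*low samples, a difference of −2.20 (SE 0.50, adjusted p 0.170 by limma). It was well above background on 2 of 3 *Wnt4*hi arrays and on each *Wnt4*low array, with no overlap. In the authors' normalized values *C1qc* differed by −1.04 and passed. *C1qa* was at 10.998, 8.89 and 9.45 in *Wnt4*hi against 10.27, 10.40 and 8.88 in *Wnt4*low samples, and its highest value was on a *Wnt4*hi array, replicate 2, and its lowest on a *Wnt4*low array, replicate 4. The fold change of *C1qa* was −0.07 (95% interval −1.66 to 1.51) and ranged from −0.68 without *Wnt4*hi replicate 2 to 0.37 without *Wnt4*hi replicate 3. *C1qb* was at 10.20, 9.67 and 9.34 in *Wnt4*hi against 10.81, 10.16 and 9.99 in *Wnt4*low samples, a difference of −0.58 (95% interval −1.33 to 0.17). *Wnt4*hi replicate 2 was the only *Wnt4*hi array above a *Wnt4*low array of *C1qb*, and without it the gene passed at −0.81, while without *Wnt4*low replicate 1 it was −0.34. The 3 chains form 1 protein, and each was read by 1 probe. The fold change of *C1qc* lay below the 95% intervals of both *C1qa* and *C1qb*, and that difference between chains was not tested.

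Scavenger receptors and other genes of tissue-resident macrophages were mostly near background or overlapped between the populations, with a median of −0.20. *Mrc1*, the mannose receptor CD206, was well above background on 0 of 3 *Wnt4*hi and 2 of 3 *Wnt4*low arrays and ranged from 6.46 to 8.27 over the 6 arrays. The fitted fold change passed (−1.05, adjusted p 0.412 by limma), but *Wnt4*hi replicate 2 lay above *Wnt4*low replicate 3, and the level in *Wnt4*hi cells has only a bound, at least 1.42-fold lower. The call was lost without *Wnt4*hi replicate 3 (−0.88), *Wnt4*hi replicate 4 (−0.92), *Wnt4*low replicate 1 (−0.93) or *Wnt4*low replicate 4 (−0.85). *Lyve1*, the hyaluronan receptor of some resident macrophages and of lymphatic vessels, and *Timd4*, a phosphatidylserine receptor, were well above background on 3 and 0 of the 6 arrays. *Lyve1* ranged from 6.82 to 7.96 and *Timd4* from 6.40 to 6.80.
*Cd163*, the haemoglobin scavenger receptor, was at 8.01, 7.96 and 7.98 in *Wnt4*hi against 7.95, 7.81 and 7.73 in *Wnt4*low samples on its brighter probe, where all *Wnt4*hi arrays lay above all *Wnt4*low arrays by little (0.15, 95% interval −0.15 to 0.45). Its other probe was well above background on 3 of 6 arrays and differed by −1.56, and it stood for the gene, at −1.14 and −1.07, without *Wnt4*hi replicates 2 or 3. *Folr2*, a folate receptor of resident macrophages, was at 8.67, 8.52 and 8.57 in *Wnt4*hi against 9.20, 8.71 and 8.34 in *Wnt4*low samples, with a fold change of −0.16 (95% interval −0.73 to 0.40). *Pf4*, a chemokine of platelets and some macrophages, was at 7.35, 9.03 and 10.44 in *Wnt4*hi against 9.43, 9.32 and 9.53 in *Wnt4*low samples. *Wnt4*hi cells held both the lowest and the highest array of *Pf4*, and the fold change was −0.49 (95% interval −2.27 to 1.29), or 0.31 without *Wnt4*hi replicate 2.

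Of the subunits of the phagocyte NADPH oxidase, which makes superoxide, the membrane subunit was lower. *Cybb*, the catalytic subunit, was at 7.89, 7.72 and 8.99 in *Wnt4*hi against 9.34, 9.37 and 9.58 in *Wnt4*low samples, a difference of −1.22 (SE 0.34, adjusted p 0.262 by limma). Its *Wnt4*low arrays lay close together, and *Wnt4*hi replicate 4 stood above the other *Wnt4*hi arrays but below each *Wnt4*low array. The cytosolic subunit *Ncf1* was at 10.73, 10.79 and 10.52 in *Wnt4*hi against 11.01, 10.74 and 10.68 in *Wnt4*low samples and differed by −0.13 (95% interval −0.51 to 0.25). *Ncf4*, another cytosolic subunit, was at 8.63, 8.50 and 8.30 in *Wnt4*hi against 9.65, 8.34 and 8.90 in *Wnt4*low samples and differed by −0.48 (95% interval −1.30 to 0.33). Both cytosolic subunits overlapped between the populations, and *Ncf4* passed without *Wnt4*low replicate 3 (−0.79) and was −0.14 without *Wnt4*low replicate 1.

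Of the granulocyte genes, both subunits of calprotectin were lower and both granule enzymes did not pass. *S100a8* and *S100a9*, whose upstream sequences are printed with the promoters, encode the subunits of calprotectin, an abundant cytosolic protein of neutrophils and of some monocytes. *S100a8* was at 7.41, 6.25 and 6.34 in *Wnt4*hi against 9.45, 9.97 and 9.70 in *Wnt4*low samples, well above background on 0 of 3 *Wnt4*hi arrays and on each *Wnt4*low array. Between the means it was lower in *Wnt4*hi cells by at least 5.16-fold. The fitted difference was −3.04 (SE 0.34, 95% interval −3.87 to −2.21, adjusted p 0.0401 by limma). The bound takes, on each *Wnt4*hi array, the higher of the value of the gene and the lowest signal that was well above background. It leaves out the spread between arrays. Without adjustment *S100a8* passed in all 21 alternative settings, and after adjustment in none of the 6 that left out 1 array. *S100a9* was at 10.998, 9.75 and 9.42 in *Wnt4*hi against 11.56, 12.14 and 12.14 in *Wnt4*low samples, a difference of −1.89 (SE 0.43, adjusted p 0.172 by limma). *Wnt4*hi replicate 2 was the highest *Wnt4*hi array of both genes and still lay below each *Wnt4*low array.
*Mpo* and *Elane* encode myeloperoxidase and neutrophil elastase, granule proteins made by granulocyte precursors. *Mpo* was at 10.34, 10.28 and 9.99 in *Wnt4*hi against 10.30, 10.18 and 9.65 in *Wnt4*low samples and *Elane* at 8.20, 8.25 and 7.97 in *Wnt4*hi against 8.54, 8.10 and 8.05 in *Wnt4*low samples. Both overlapped, with fold changes of 0.16 (95% interval −0.36 to 0.69) and −0.09 (95% interval −0.53 to 0.35).

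Lymphocyte genes passed in 0 of 3. *Cd3e*, a chain of the T cell receptor complex, was at 10.67, 10.27 and 10.21 in *Wnt4*hi against 9.97, 10.23 and 9.76 in *Wnt4*low samples, with a fold change of 0.40 (95% interval −0.08 to 0.87). *Nkg7*, a granule protein of NK and cytotoxic T cells, was at 7.90, 7.95 and 7.79 in *Wnt4*hi against 8.60, 7.92 and 7.55 in *Wnt4*low samples, with a fold change of −0.14 (95% interval −0.82 to 0.53). *Cd79a*, a signalling chain of the B cell receptor, was well above background on 2 of 3 *Wnt4*hi and 1 of 3 *Wnt4*low arrays and ranged from 7.32 to 8.65. The highest array of *Nkg7* and of *Cd79a* was *Wnt4*low replicate 1, and the highest of *Cd3e* was *Wnt4*hi replicate 2.

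**Figure D3:**
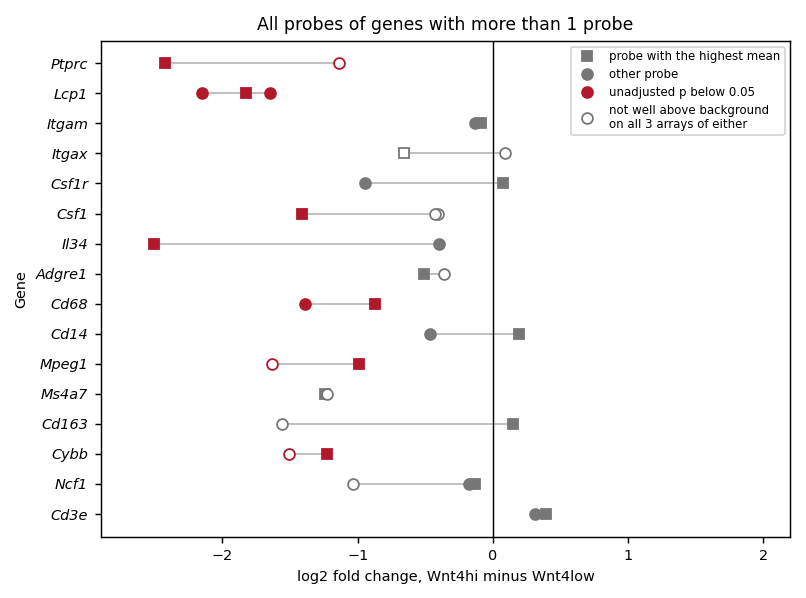
Log2 fold change (*Wnt4*hi minus *Wnt4*low) of every probe of the 16 genes with more than 1 probe. Squares stand for the probe with the highest mean, and the probes of *Csf1r*, *Cd14*, *Cd163* and *Itgax* lie on both sides of 0, while those of *Lcp1*, *Cd68*, *Mpeg1*, *Cybb* and *Ptprc* all lie left of it.

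Over all 68 probes, 25 (36.8%) were lower in *Wnt4*hi cells and 0 were higher, where 6.15% of all probes were lower and 4.84% were higher. Of the 16 genes with more than 1 probe, 12 had all probes on 1 side of 0 and 14 had all on the same side of the threshold. *Csf1* and *Il34* were the genes with probes on different sides of the threshold, and each had 1 probe that passed. By detection, 34 of the 49 genes were well above background on all 6 arrays and 43 on all 3 arrays of at least 1 population. Of these 43, *Ptprc*, *Coro1a*, *Cd53*, *Spi1*, *Lyz1*, *C1qc*, *Pf4* and *S100a8* were so on all 3 *Wnt4*low arrays but not on all 3 *Wnt4*hi arrays, and *Nkg7* was the 1 gene of the opposite kind.

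Array by array, *Wnt4*hi replicate 2 had the most leukocyte signal of its population. It was the highest *Wnt4*hi array for 30 of the 49 genes, and for 11 of the 19 that were lower. Among *Wnt4*low arrays, replicate 1 was highest for 24 genes, replicate 4 for 16 and replicate 3 for 9. The median difference of the 19 lower genes from their mean over the 6 arrays was −0.52, −1.09 and −0.76 in *Wnt4*hi against 0.78, 0.53 and 0.95 in *Wnt4*low samples. The number of genes that were lower was 23 without *Wnt4*hi replicate 2 and 23 without *Wnt4*low replicate 3, and 17 to 19 without any other array. Of the 19, 18 were lower also without *Wnt4*hi replicate 2, and all 19 without *Wnt4*low replicate 3.

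**Figure D4:**
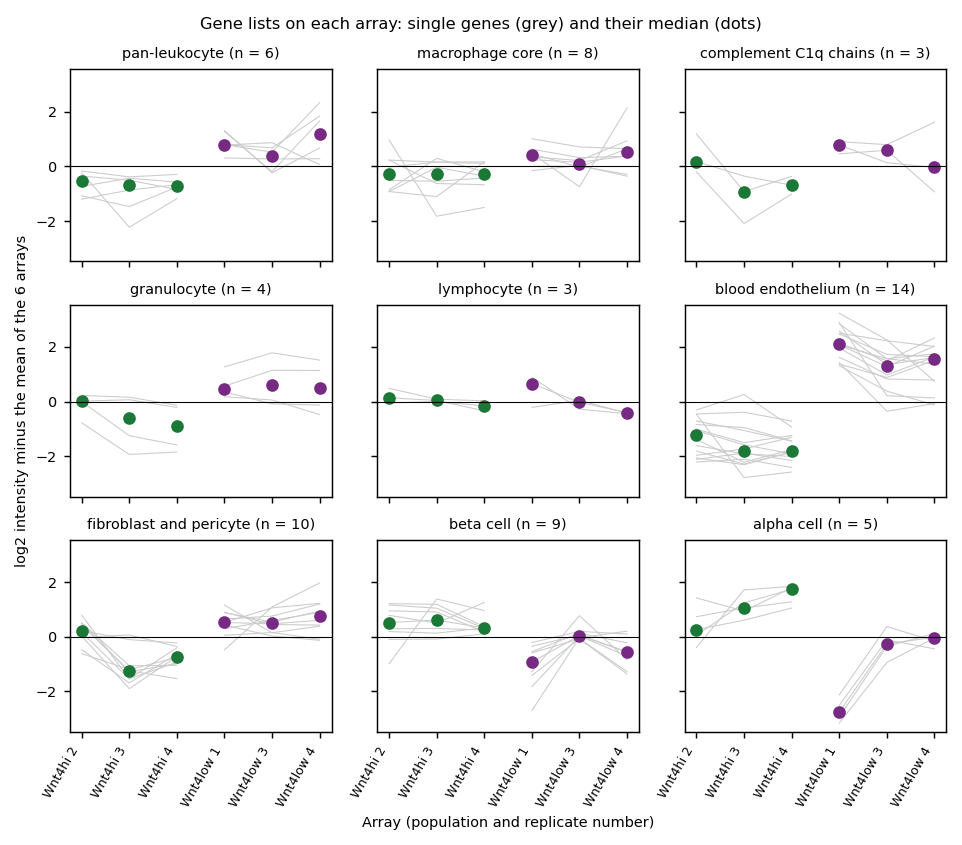
Log2 intensity minus the mean of the 6 arrays for single genes (grey lines) and the median of their list (dots, green for *Wnt4*hi and purple for *Wnt4*low) on each array, for 5 leukocyte classes and 4 lists of other cell types. The pan-leukocyte medians are below 0 on all 3 *Wnt4*hi arrays and above it on all 3 *Wnt4*low arrays, the blood endothelium shows the same step with a larger size, and the lymphocyte medians do not step.

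Further genes of the same cells were taken from lists written beside the 49. Of 25 other macrophage and myeloid genes, 8 were lower and 2 were higher, with a median of −0.29. Among those with the highest mean over the 6 arrays were the fractalkine receptor *Cx3cr1* (−1.35) and the transcription factor *Maf* (−1.52), both lower. Of 5 other Fc receptors and oxidase subunits 4 were lower (median −1.15), among them *Cyba* (−1.80), the partner of *Cybb* in the membrane. Of 19 genes of haematopoietic signalling 6 were lower and 2 higher (median −0.41), and *Arhgdib*, a regulator of small GTPases in leukocytes, was at −1.10. Of 14 other complement genes 5 were lower and 0 higher (median −0.55), with *C3*, the central component, at −1.11. Of 8 other cytokine receptors and cytokines of myeloid cells 2 were lower and 1 higher (median −0.0021), with the bright probe of *Csf3r*, the G-CSF receptor, at 0.02 and not past the threshold.
Further lists hold markers of single leukocyte types. Of 12 neutrophil genes 3 were lower (median −0.32), while *Lcn2*, the iron-binding protein lipocalin, was at −0.19 and did not pass. Of 10 genes of mast cells, basophils and eosinophils 1 was lower (median −0.39). None of 15 T and NK cell genes passed in limma in either direction (median 0.06), nor did any of 8 B cell genes (median 0.06), 8 dendritic cell genes (median 0.025) or 5 platelet and megakaryocyte genes (median −0.05).

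**Figure D5:**
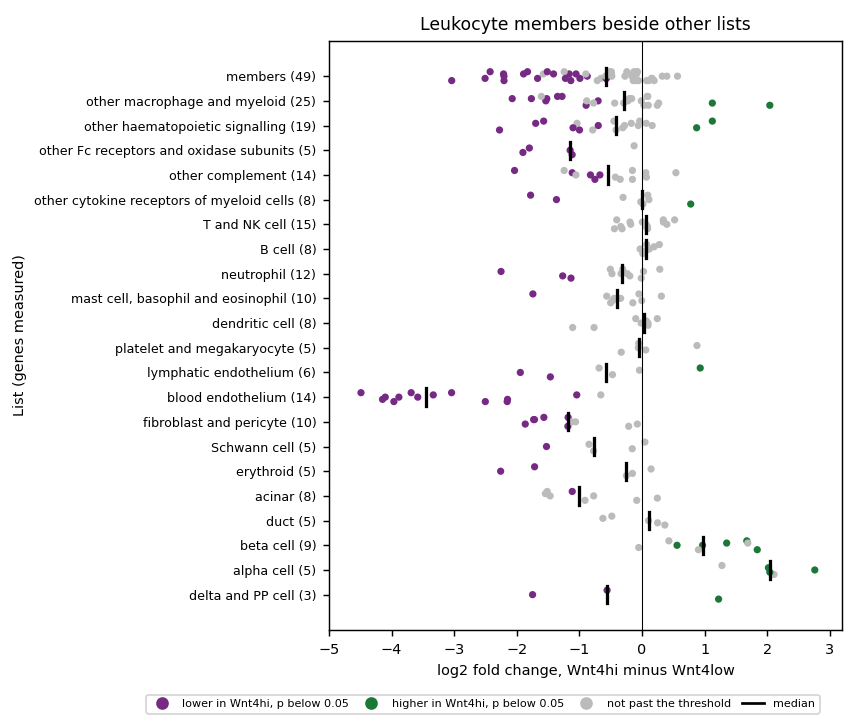
Log2 fold change (*Wnt4*hi minus *Wnt4*low) of each of the 49 genes and of the genes of 21 other lists, with the median of each list as a bar and color for unadjusted p below 0.05. Of the 49 genes 8 lie right of 0, as do 8 of 25 other macrophage and myeloid genes, 4 of 8 myeloid cytokine receptors and cytokines, 9 of 15 T and NK, 7 of 8 B and 4 of 8 dendritic cell genes, while by median blood endothelium lies farthest left and α-cell genes farthest right.

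Genes of other cell types differed between the same arrays. Of 14 blood endothelium genes 13 were lower in *Wnt4*hi cells, 8 of them after adjustment, with a median of −3.46, and all 14 were well above background on each *Wnt4*low array and 10 to 12 of them on each *Wnt4*hi array. Their mean log2 intensity was 8.51 to 8.90 on the *Wnt4*hi arrays and 11.36 to 12.37 on the *Wnt4*low arrays, and none of the defining markers *Pecam1* (−3.04), *Plvap* (−4.10) and *Egfl7* (−2.15) was near background in *Wnt4*low cells. Of 10 fibroblast and pericyte genes 6 were lower (median −1.18), with a mean of 10.75 to 12.05 on the *Wnt4*hi arrays and 12.39 to 12.64 on the *Wnt4*low arrays. Within *Wnt4*hi cells that mean was highest on replicate 2, the array that also had the most leukocyte signal. Of 5 erythroid genes 2 were lower (median −0.25), of 6 lymphatic endothelium genes 2 were lower and 1 higher (median −0.58), and of 5 Schwann cell genes 1 was lower (median −0.77). Of endocrine genes, 5 of 9 β-cell genes (median 0.97) and 3 of 5 α-cell genes (median 2.04) were higher, and of 3 δ- and PP-cell genes 2 were lower and 1 higher. Of 8 acinar genes 1 was lower (median −1.01) and of 5 duct genes 0 passed in limma (median 0.10). The part of these other cells in the differences of the leukocyte genes, the ligands *Csf1* and *Il34* included, was not tested.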

How the data were processed

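Islet cells of P1 *Wnt4eGFPCre; mTmG* pups, sorted by mGFP, were measured on 6 one-color Agilent arrays labelled with Cy5, 3 per population by the sample labels, after amplification of the RNA. The authors deposited the scanner output, which holds per spot a median intensity and a local background without normalization, and also deposited log2 values that they had normalized. The file headers name Feature Extraction 12.0.1.1 and the submitters' processing notes name 9.1.

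Following the methods, background was corrected with normexp (offset 50), arrays were normalized by quantiles, and populations were compared with lmFit and eBayes (limma 3.58.1, R 4.3.3), two-sided, without covariates. Outlier spots were dropped after normalization (50 to 141 per array), a step that the methods do not mention, and spots of a probe were averaged. Symbols came from RefSeq genes of GRCm38.p6, used for names, for 32994 of 35886 RefSeq probes, and the probe with the highest mean stood for a gene. A bound for a gene not well above background uses, on each array, the higher of its value and the lowest signal well above background. It compares means and leaves out the spread between arrays. All 6 arrays lay on 1 slide. Median intensity was 10.8 to 15.6 times median background, and precision is limited by the number of arrays. Nothing in the labels says that pools were separate litters, so p values measure the spread between these pools. The fit was tested on simulated data.

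The 49 genes, the 21 other lists and the alternatives were chosen with earlier results of these data known. All 49 genes are named, with array values where the gene was well above background on all 3 arrays of a population and otherwise by range, and at most the 3 genes with the highest mean are named of each other list. Of 202 other genes 197 were measured, and 2 of them are in 2 lists each. Single values of some genes on these lists are not reported here. Alternatives changed the background correction, normalization, dim-probe filter, outlier spots, choice of probe, variance model, test, values and replicate block, and left out each array.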

Additional observations from a re-analysis of the deposited data

How the results depend on the processing

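The count of 19 lower genes was 16 to 23 over 21 alternative settings: 16 with the methods' t-test, 20 of 45 genes listed in the authors' table, and 23 of 45 in that table without *Wnt4*hi replicate 2, an alternative chosen after seeing the data because the authors' column of that name lay closer to the scanner values of *Wnt4*hi replicate 3 (r = 0.919) than to its own (r = 0.902). Of the 19 genes, 15 were lower also in the authors' table, where *Cd53* (−0.33) and *Mpeg1* (−0.54) did not pass, and 16 without that replicate, where *Il34* (−1.69) did not. *Cd68* and *Ptprc* are not analysed in that table, in which *Laptm5* was −1.13. The t-test lost *Cd52*, *Il34* and *Mrc1*. All 19 kept their sign in each setting that measured them. The genes higher numbered 0, or 1 with 1 array left out.

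After adjustment the 1 lower gene became 0 with the processed signal, the methods' t-test, the authors' table and the fixed replicate block, 2 with the probe of smallest p, 3 with the mean of probes, 4 with the filter on dim probes and 4 in the authors' table without *Wnt4*hi replicate 2. The 2 genes with every *Wnt4*hi array higher became 1 with the processed signal, median centring, cyclic loess, the mean of probes, the probe of smallest p and the authors' table without *Wnt4*hi replicate 2, and 0 in the authors' table. The cause was not tested, except that the filter leaves fewer features.

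Medians of classes moved by more than the spread of the arrays as follows. The filter on dim probes gave −0.90 for Fc receptors and adaptors. The mean of probes gave −0.75 for the CSF1 receptor and its ligands. The probe of smallest p gave −1.15 for pan-leukocyte, −0.98 for core macrophage and −1.04 for oxidase genes. The authors' table gave −1.12, −0.60 and −1.61 for pan-leukocyte, core macrophage and granulocyte genes. That table without *Wnt4*hi replicate 2 gave −0.46, −1.01 and −2.35 for integrins, core macrophage and granulocyte genes.

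Genes that did not pass changed sign in some settings. *Itgam* was 0.014 with the processed signal and 0.10 with cyclic loess. *Csf1r*, *Cd14* and *Cd163* were −0.43, −0.13 and −0.70 with the mean of probes and −0.94, −0.46 and −1.56 with the probe of smallest p. In the authors' table *Csf1r* was −0.24, *Fcgr1* −0.054, *Cd163* −0.51, *Lyve1* 0.039 and *Pf4* 0.019, and without *Wnt4*hi replicate 2 *Itgam* was 0.030, *Csf1r* −0.43, *Cd163* −0.44 and *Pf4* 0.30.

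Samples that share a replicate number also share the number of pups pooled, and the labels do not say whether they came from the same pups. Deviations of same-numbered arrays correlated at −0.03 (replicate 3) and 0.16 (replicate 4). With the number as a fixed replicate block 18 genes were lower, 15 of them among the 19 (*Cd52*, *Cd53*, *Cd68* and *Lyz2* did not pass), and as a random block 20, 19 of them shared. The fixed block gave class medians of −2.10 for lysozymes and cathepsin, 0.12 for scavenger and resident genes and −0.22 for oxidase genes, and *Csf1r* −0.065, *Fcgr1* −0.073, *Fcgr3* 0.12, *Lyve1* 0.16, *Folr2* 0.021, *Pf4* 0.31, *Elane* 0.033, *Cd79a* 0.21 and *Nkg7* 0.14.

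With 1 array left out, 0 genes passed after adjustment, 17 to 23 were lower, 0 to 1 higher, and every *Wnt4*hi array was lower for 17 to 25 and higher for 2 to 3 genes. Class medians ran from −1.98 to −1.33 (pan-leukocyte), −0.31 to −0.11 (integrins), −1.67 to −0.47 (CSF1 receptor and ligands), −0.92 to −0.53 (core macrophage), −0.45 to 0.014 (scavenger and resident), −0.79 to −0.14 (oxidase), −1.24 to −0.79 (granulocyte) and −0.36 to 0.30 (lymphocyte). Single genes ran from −0.65 to 0.010 for *Itgb2*, −0.21 to 0.056 for *Itgam*, −0.022 to 0.18 for *Csf1r*, −0.68 to 0.37 for *C1qa*, −0.17 to 0.059 for *Fcgr3*, −1.14 to 0.21 for *Cd163*, −0.37 to 0.061 for *Folr2*, −1.25 to 0.31 for *Pf4*, −0.036 to 0.29 for *Mpo*, −0.18 to 0.062 for *Elane*, −0.36 to 0.30 for *Cd79a* and −0.39 to 0.14 for *Nkg7*. The slide and scan as a block were not run, since all arrays share 1 slide.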

Other observations

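Among the lists beside the 49 genes, 4 further leukocyte genes passed after adjustment over all features, where 0.403% of all features were lower and 0.0351% higher. They were 1 of 19 haematopoietic signalling genes, 1 of 8 myeloid cytokine receptors and cytokines, 1 of 12 neutrophil genes and 1 of 10 genes of mast cells, basophils and eosinophils. In the other leukocyte lists 0 passed. Of the 4 genes, *Runx1*, *Il1b* and *Cpa3* fall outside the rule of highest mean and were chosen after their values were seen. *Runx1*, a transcription factor of blood cell formation and of myeloid and T cells, had log2 intensities of 9.39, 9.38 and 8.97 in *Wnt4*hi against 11.17, 11.67 and 11.72 in *Wnt4*low samples, a log2 difference of −2.28 (standard error 0.21, adjusted p 0.0288 by limma). *Ngp*, a granule protein of neutrophil precursors, was at 7.54, 8.29 and 7.72 against 10.18, 10.18 and 9.95, a log2 difference of −2.25 (standard error 0.22, adjusted p 0.0336 by limma). *Il1b*, the cytokine IL-1β of activated macrophages and neutrophils, was at 8.63, 8.80 and 8.92 against 10.24, 10.76 and 10.68, a log2 difference of −1.78 (standard error 0.19, adjusted p 0.0348 by limma). These 3 genes were well above background on all 6 arrays, with no overlap between the populations.

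*Cpa3*, the carboxypeptidase of mast cells, was at 6.35, 6.25 and 6.24 in *Wnt4*hi samples, well above background in 0 of them, and at 8.28, 7.66 and 8.12 in *Wnt4*low samples, well above background in all 3. Between the means, *Wnt4*hi cells had at least 1.61-fold less of it (adjusted p 0.0370 by limma). Of the 10 genes of mast cells, basophils and eosinophils it was the 1 that passed the unadjusted threshold. *Tpsb2* (−0.50), *Cma1* (−0.45) and *Hdc* (−0.34), which also mark these cells and have the highest means of the list over the 6 arrays, did not pass.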
